A study of Mus musculus with 2 samples.

Results

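Antisense and bidirectional-promoter long non-coding RNAs of mouse hippocampus were read by long-read RNA sequencing, in which a read can cover a whole transcript. The genes were chosen by their annotated type, antisense or bidirectional_promoter_lncRNA in GENCODE M21, and by at least 10 reads summed over both libraries, with Meg3, Rian and Mirg to be left out. That exception removed 0 genes, since none of them carried either type. The choice gave 131 genes, 115 antisense and 16 bidirectional, of the 10969 annotated genes with at least 10 reads. They are called members below.

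The tissue was hippocampus (per the labels, a layer of it) from male B6CASTF1/J mice aged 14 days, untreated as far as the labels say. B6CASTF1/J is the first-generation hybrid of C57BL/6J and CAST/EiJ, and all animals shared this genotype. Each of the 2 libraries, biological replicates 1 and 2 of the only group, was made from 3 pooled males and 2 µg of RNA. Labels of the samples give each replicate its own animals, whereas the experiment-level text repeats those of replicate 1, so spread between the libraries may be technical. Values are means ± SD over both libraries (n = 2) unless a library is named. The libraries held 821324 and 743862 mouse reads, so 1 read equals 1.22 or 1.34 CPM (reads per 1000000 mouse reads of that library), and a count of 0 allows up to 3 reads, 3.65 or 4.03 CPM. All 10 hippocampal marker genes checked had reads, from 20.7 CPM ± 8.68 for Prox1 to 1282 ± 90.1 for Slc17a7.

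Antisense genes are transcribed from the DNA strand opposite to a coding gene and share part of its span. Bidirectional-promoter genes start close to the start of a coding gene and run the other way, from a stretch of DNA that serves both. Some such RNAs are known to act on the gene beside them, as Airn does in silencing Igf2r on the paternal chromosome. For many others no function is known. In brain, several lie beside genes for developmental transcription factors. Each member is compared here with a coding neighbour. The neighbour is the coding gene on the other strand whose body overlaps the member's, the one with the nearest start where several do, or otherwise the one with the nearest start.

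Divergent pairs are the simplest layout, and 11 members had it: no shared gene body, transcription in opposite directions, and starts at most 2000 bases apart. The median distance between their starts was 121 bases, and 9 of the 11 were of the bidirectional type. The stretches between the starts of 7 such pairs are shown because both genes of each pair start inside them. They are RefSeq sequence of GRCm38.p6, the assembly called mm10, on the strand of the member. Capitals mark the bases from the RefSeq start of the coding gene to that of the member. Up to 30 bases beyond the coding gene's start and 50 beyond the member's start follow in lower case on either side.
Cep83os: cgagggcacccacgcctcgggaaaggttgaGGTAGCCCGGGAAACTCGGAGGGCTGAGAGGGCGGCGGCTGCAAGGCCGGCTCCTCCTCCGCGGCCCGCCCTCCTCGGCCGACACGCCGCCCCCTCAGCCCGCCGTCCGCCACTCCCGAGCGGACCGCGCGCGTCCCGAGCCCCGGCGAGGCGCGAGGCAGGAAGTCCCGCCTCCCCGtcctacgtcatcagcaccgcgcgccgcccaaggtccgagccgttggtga
2610306M01Rik: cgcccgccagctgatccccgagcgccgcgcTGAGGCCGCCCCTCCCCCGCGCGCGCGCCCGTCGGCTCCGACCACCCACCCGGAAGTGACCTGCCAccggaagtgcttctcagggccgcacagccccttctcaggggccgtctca
F730043M19Rik: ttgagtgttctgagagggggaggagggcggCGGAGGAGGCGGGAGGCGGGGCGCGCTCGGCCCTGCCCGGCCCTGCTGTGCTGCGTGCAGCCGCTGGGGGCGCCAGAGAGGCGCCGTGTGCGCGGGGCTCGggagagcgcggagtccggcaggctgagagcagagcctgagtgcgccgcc
2810001G20Rik: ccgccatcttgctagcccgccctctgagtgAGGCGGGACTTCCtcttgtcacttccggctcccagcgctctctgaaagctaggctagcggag
2810029C07Rik: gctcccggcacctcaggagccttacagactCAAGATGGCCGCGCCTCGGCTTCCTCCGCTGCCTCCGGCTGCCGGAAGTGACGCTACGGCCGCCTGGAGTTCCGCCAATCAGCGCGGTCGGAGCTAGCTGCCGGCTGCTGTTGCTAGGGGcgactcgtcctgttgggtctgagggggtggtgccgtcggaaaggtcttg
0610009L18Rik: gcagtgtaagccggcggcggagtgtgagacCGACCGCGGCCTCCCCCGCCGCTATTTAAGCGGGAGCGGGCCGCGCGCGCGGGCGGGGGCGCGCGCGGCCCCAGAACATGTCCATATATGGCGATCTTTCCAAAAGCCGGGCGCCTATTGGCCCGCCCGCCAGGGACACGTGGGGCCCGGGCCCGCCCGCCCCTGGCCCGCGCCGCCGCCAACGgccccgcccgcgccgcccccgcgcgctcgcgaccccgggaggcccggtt
Gm9776: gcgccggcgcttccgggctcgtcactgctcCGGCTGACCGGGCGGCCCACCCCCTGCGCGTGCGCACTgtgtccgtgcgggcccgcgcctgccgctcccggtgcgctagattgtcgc

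The Cep83os stretch lies at chr10:94688564-94688820 on the minus strand, beside Cep83, a gene for a centriole protein needed to anchor cilia. That of 2610306M01Rik lies at chr6:86849391-86849535 on the minus strand, beside the kinase gene Aak1, and that of F730043M19Rik at chr12:33147537-33147716 on the minus strand, beside Atxn7l1. The 2810001G20Rik stretch lies at chr11:64079442-64079533 on the plus strand, beside Cox10, which serves haem synthesis for cytochrome oxidase. Those of 2810029C07Rik, beside the kinase gene Mark3, and 0610009L18Rik, beside the gamma-actin gene Actg1, lie at chr12:111574353-111574551 on the minus strand and chr11:120348465-120348727 on the plus strand. Gm9776 lies beside Ap3b1, a subunit gene of a vesicle adaptor, at chr13:94358874-94358990 on the minus strand. The marked stretch is 184 bases in the Actg1 pair and 13 in the Cox10 pair, with 31 and 1 CG dinucleotides inside it. The other marked stretches, from 38 to 178 bases, hold 6 to 28 of them.

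A promoter window of 300 bases, from 250 before to 50 after the RefSeq start, was found by symbol for 58 members, and in 44 its start lay within 250 bases of the annotated start. The median number of CG dinucleotides was 36.0 in the 10 divergent members with a window, 21 in the 44, and 7 over all 32851 windows of the table. The letters GGGCGG, the core of a GC box, occurred on either strand in 10 of 10 divergent windows, 65.9% of the 44 and 35.7% of all. CCGGAAG, a core bound by ETS factors, was in 5 of the 10 divergent windows, 18.2% of the 44 and 8.86% of all. TATAAA was in 0 of the 10, in 9.09% of the 44 and in 13.6% of all, while CCAAT was in 40.0%, 45.5% and 37.4%. None of these motifs contains another, and a match describes the letters only.

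Divergent members stood below their coding gene. In 10 of the 11 pairs the member had the lower CPM in both libraries, and its median share of the pair's reads was 22.2%. Cep83os had 13 reads in replicate 1 and 14 in replicate 2, against 32 and 31 of Cep83, and 88.9% of its reads were spliced. For 2610306M01Rik there were 8 and 12 reads, all matching the annotated single-exon transcript, against 63 and 47 of Aak1. F730043M19Rik had 9 and 10 reads against 11 and 15 of Atxn7l1, a share of 42.5% ± 3.54. 2810013P06Rik, whose start lies 189 bases from that of the chromatin regulator gene Ankrd11, had 18 reads in each library against 68 and 59, and 97.2% of them were annotated. At the other end, 0610009L18Rik had 6 reads in each library against 1798 and 1485 of Actg1, a share of 0.368% ± 0.0494. The exception to the order was Gm13375, of antisense type, with 31 and 22 reads against 27 and 26 of Arhgap21. Its share of the pair was 53.4% in replicate 1 (40.8 to 65.7, Wilson 95% bounds), and replicate 2 gave 45.8% (32.6 to 59.7). An order of this pair was not detectable at this depth. Such bounds, like the allowance for a count of 0, hold counting error and nothing else, because amplified reads are not independent molecules.

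Over all layouts, most members were scarce. Of 3149 annotated genes of these types, 2141 had 0 reads, 877 had 1 to 9, and 17 members sat at exactly 10 reads, among them 1700084C06Rik, 1810062O18Rik, A730020E08Rik and AC098707.1. Another 19 genes, among them 0610040B10Rik, 4732491K20Rik, 4930488L21Rik and 4933412E12Rik, had 9 and are no members. All 131 members were seen in both libraries, with 2118 reads in replicate 1 and 2070 in replicate 2, or 0.268% ± 0.0144 of mouse reads. Their median level was 10.9 CPM and their range 6.21 to 285. At the same minimum of reads the median was 12.1 CPM for 95 lincRNA genes, which lie apart from coding genes, 10.3 for 81 processed_transcript genes and 34.5 for 10467 coding genes. The reads were concentrated: the first member held 10.6% of the members' CPM, the first 5 held 27.1% and the first 20 held 53.2%.

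**Figure D1:**
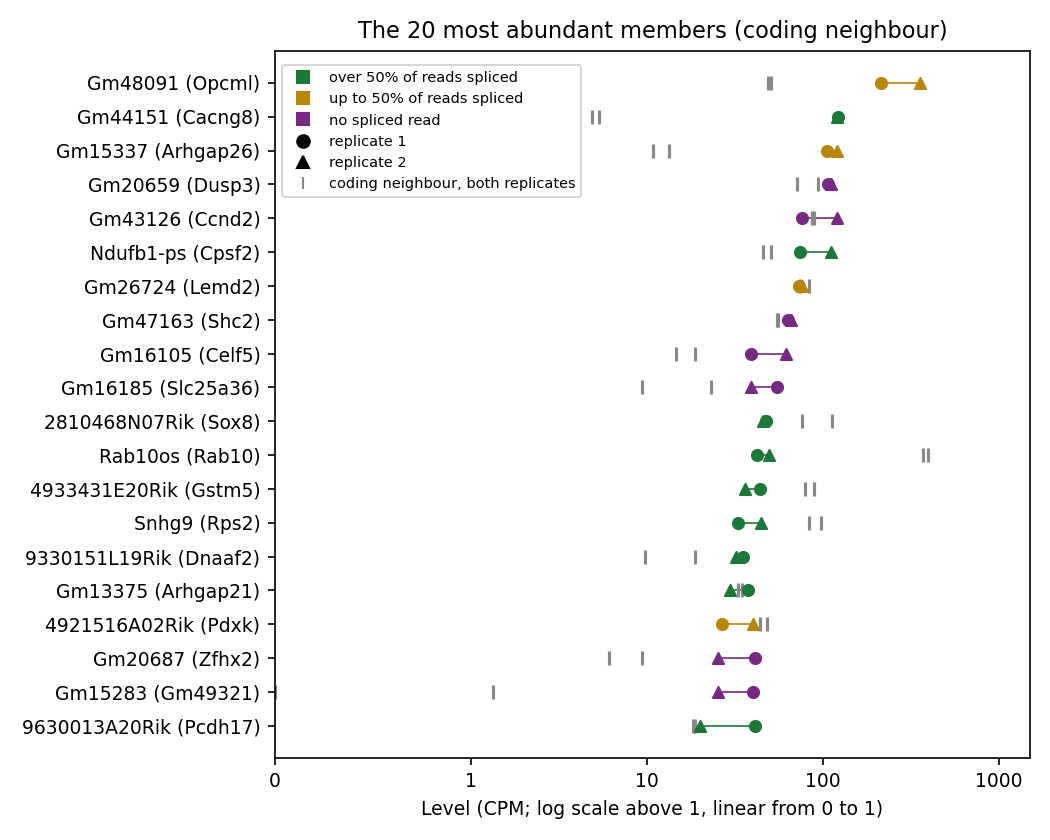
Level in CPM of the 20 most abundant members, with the coding neighbour in brackets; circles are replicate 1, triangles replicate 2, grey ticks the neighbour in each library, and colours the share of spliced reads. Gm48091 reaches 214 and 355 CPM, and 12 of the 20 lie above their neighbour in both libraries.

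Gm48091, at chr9:28794296-28954347 on the minus strand, was the most abundant. It had 176 reads in replicate 1 and 264 in replicate 2, 285 CPM ± 99.4, and overlaps tail to tail with Opcml, a gene for a neuronal cell adhesion molecule that had 40 and 38 reads. Of its reads 98.9% lay entirely inside exons of Opcml on the other strand, and none of their bases lay in its own annotated exons. A single-exon structure of the genomic class held 99.8% of them. In TALON, the program whose attribute names the deposited annotation carries, that class holds models over a known gene that do not follow its annotated splicing. The reads therefore carry the name of Gm48091 but lie over the 3' UTR of Opcml, which held all of the coding-exon bases they covered.

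Gm44151 had 100 and 89 reads, 121 CPM ± 1.49, inside Cacng8, the gene for an auxiliary subunit of AMPA receptors that is abundant in hippocampus. Cacng8 itself had 4 reads in each library, so the member held 95.9% ± 0.322 of the pair. Its main structure was spliced. The intron at chr7:3391361-3394038 was the same to the base in 77 reads of replicate 1 and 69 of replicate 2, and it is not annotated for Gm44151 nor, at these positions, for a gene of the other strand. Of its read bases, 0.00407% lay in its own annotated exons.

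Gm15337 had 87 and 90 reads and overlaps Arhgap26, which had 11 and 8. Gm20659 had 88 and 83, inside the phosphatase gene Dusp3 with 59 and 70. Gm43126 had 63 and 89, tail to tail with Ccnd2, the cyclin gene D2, which had 73 and 65. In all of these 3 members at least 99.4% of reads lay wholly inside exons of coding genes on the other strand, and the bases shared were 3' UTR in 100% of cases after rounding. At most 16.2% of their read bases lay in their own exons. Gm16105, inside the RNA-binding protein gene Celf5, repeated the form with 32 and 46 reads against 12 and 14. Its reads were all single exon, all inside coding exons, and shared 3' UTR only.

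A second kind of abundant member was spliced and matched its annotation. Ndufb1-ps is of the bidirectional type and overlaps head to head with Cpsf2, a gene for a factor that cleaves pre-mRNA before the poly(A) tail is added. It had 61 and 83 reads, 98.6% of them spliced and 95.1% annotated, and the transcript Ndufb1-ps-203 held 81.2%. Its name, with the ending -ps, labels it a pseudogene of a respiratory complex I gene, although its annotated type is bidirectional_promoter_lncRNA. Whether its reads also match another gene was not tested, and how such reads are assigned is not given in the sources used here. Its share of the pair was 59.2% in replicate 1 and 70.9% in replicate 2, above Cpsf2 in both. The Wilson interval of replicate 1 (49.6 to 68.2) included 50%, and that of replicate 2 (62.2 to 78.4) did not.

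Snhg9, a host gene of a small nucleolar RNA, had 27 and 33 reads inside Rps2, the gene of a ribosomal protein with 80 and 62. Every read followed the annotated transcript of 2 exons and 183 bases, shown here because its contact with the coding gene can be read from it. It is the only GENCODE M21 transcript of the gene, at chr17:24719531-24719965 on the minus strand of mm10. Capitals mark the bases over an exon of Rps2 on the other strand.
Snhg9: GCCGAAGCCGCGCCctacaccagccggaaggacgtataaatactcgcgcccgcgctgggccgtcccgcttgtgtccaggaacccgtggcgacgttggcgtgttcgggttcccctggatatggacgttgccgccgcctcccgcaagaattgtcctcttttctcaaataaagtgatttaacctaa
The contact is 14 bases, positions 1 to 14 from the 5' end, and lies in the 5' UTR of Rps2. Although each read of Snhg9 counts as lying over a coding exon, 7.65% of its bases do so.

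The other spliced members among the first 20 lay on both sides of their neighbours in level. Of the reads of 2810468N07Rik 67.1% were annotated, against 27.8% for Rab10os, 38.1% for 4933431E20Rik and 26.4% for 9330151L19Rik. Rab10os, 4933431E20Rik and 9330151L19Rik had 70.8%, 58.7% and 60.4% of their reads spliced. Their leading structure was nevertheless single exon and of the genomic class, with 19.4%, 41.3% and 39.6% of reads. 2810468N07Rik, head to head with the glial transcription factor gene Sox8, had 39 and 34 reads against 93 and 57, with 75.3% spliced. Rab10os, tail to tail with Rab10, a GTPase gene of vesicle transport, had 35 and 37 against 305 and 296. These members stayed below their neighbours in both libraries, with shares of 33.5% ± 5.53 and 10.7% ± 0.578. 4933431E20Rik had 36 and 27 reads against 65 and 66 of the glutathione transferase gene Gstm5. 9330151L19Rik, with 29 and 24, stood above Dnaaf2, a dynein assembly gene with 8 and 14. 9630013A20Rik, inside the protocadherin gene Pcdh17, had 34 and 15 against 15 and 14, and 98.0% of its reads were spliced, though 24.5% followed an annotated transcript.

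The remaining members of the first 20 were mostly unspliced. Gm47163, bidirectional with a start 62 bases from that of the adaptor gene Shc2, had 52 and 49 reads, every one matching its single-exon transcript, against 46 and 41. The intervals of its share (43.3 to 62.6 and 44.2 to 64.3) both included 50%. Gm26724 had 60 and 57 reads against 61 and 62 of Lemd2, an inner nuclear membrane gene. Its share, 49.6% and 47.9%, had Wilson intervals of 40.8 to 58.4 and 39.1 to 56.8, so no order was detectable. Gm16185 had 45 and 29 against 19 and 7 of the mitochondrial carrier gene Slc25a36, and 4921516A02Rik had 22 and 30 against 36 and 36 of Pdxk, the pyridoxal kinase gene. Gm20687, which spans the homeobox gene Zfhx2, had 34 and 19 against 5 and 7, and Gm15283 had 33 and 19 against 0 and 1 of Gm49321. The leading models of Gm15283, with 32 of its reads in replicate 1 and 18 in replicate 2, lay at chr12:73908324-73912203 and chr12:73908324-73910426. Gm49321 starts at 73937653, so these reads lie outside its body. No read base of Gm15283 lay in its own exons. Gm20687 shares exon bases with Thtpa and Zfhx2os on its own strand, and 6 members in all share bases with another gene in this way. Reads in such shared bases may belong to either gene. For Gm20687, 0.274% of read bases lay in its own exons, shared or not.

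Most member reads were not spliced when every class was counted. Of member reads 30.2% ± 1.67 were spliced, against 38.1% for lincRNA, 73.9% for processed_transcript and 89.6% for coding genes. These are shares of summed reads. The median over genes was 6.45% for members, 48.1% for lincRNA, 81.0% for processed_transcript and 94.1% for coding genes. With the genomic class left out, 76.0% of the members' remaining reads were spliced. The 115 antisense members stood at 26.9% and the 16 bidirectional members at 53.6% ± 1.89. Annotated transcripts held 16.4% of antisense and 77.5% of bidirectional reads, while the genomic class held 73.4% and 13%. Reads crossed 1.57 exons on average, against 8.28 in coding genes. The members' median model length per read was 1778 bases ± 124, against 2283 ± 7.07 in coding genes.

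**Figure D2:**
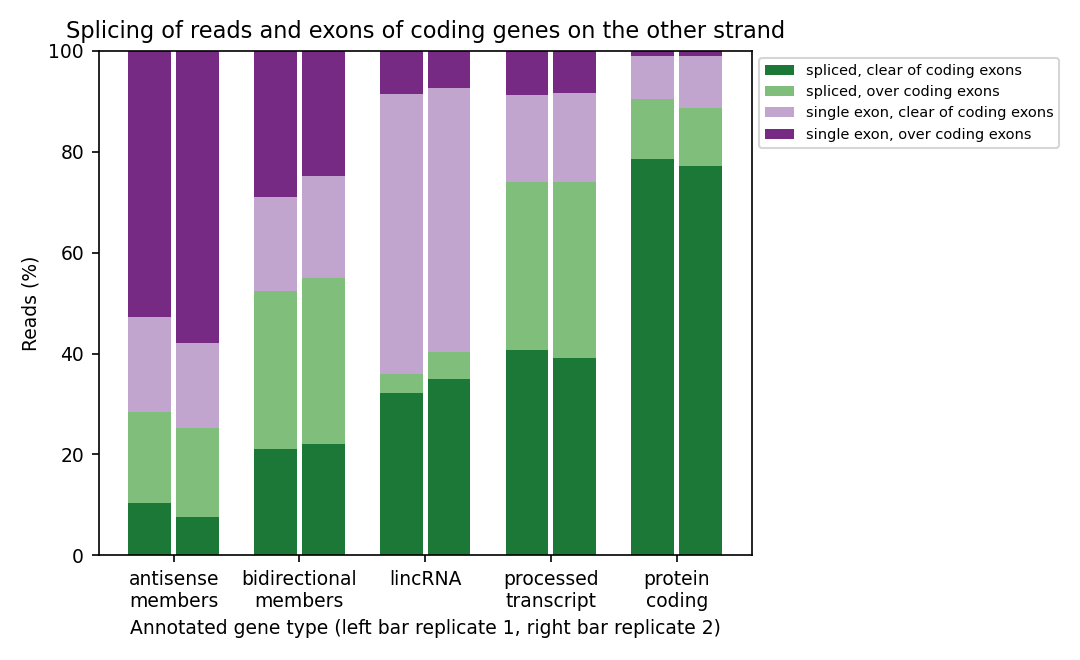
Share of reads, in percent, by splicing and by whether the read's exons share a base with a coding exon of the other strand, for each annotated gene type; left bars are replicate 1 and right bars replicate 2. Single-exon reads over coding exons fill 52.7% of the antisense bar in replicate 1 and 0.959% of the coding bar.

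Coding exons of the other strand lay under 71.4% ± 2.64 of member reads, against 12.5% for lincRNA, 42.6% for processed_transcript and 12.7% for coding genes. Antisense genes are annotated where coding genes lie, and 92 of the 131 members have annotated exons over such exons, so this share is not independent of the type that chose them. Single-exon reads over coding exons made up 51.7% ± 2.73 of member reads, and spliced reads over them 19.7% ± 0.0863. For processed_transcript genes these shares were 8.63% and 34.0%. Of the members' single-exon reads over coding exons, 58.3% ± 7.92 had every base inside coding exons. At least 50% of the bases lay in the member's own exons in 19.1% ± 2.00 of them. Of the spliced reads over coding exons 69.3% had at least 50% of their bases in their own exons, and of the spliced reads clear of them 87.3% did. The bases of a read are here those of the model it was assigned to. A read of an annotated transcript therefore counts as wholly in its own exons, so these shares partly restate the class of the reads.

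The coding parts under these reads differed between the forms. Where single-exon reads shared bases with coding exons, 78.3% ± 2.84 of the shared bases were annotated 3' UTR, 6.43% ± 1.08 coding sequence and 4.86% ± 1.02 5' UTR. Without Gm48091 the 3' UTR share was 73.3%. These shares pool bases over all reads, so abundant members weigh most, and members without spliced reads differed. The 3' UTR held 100% of the shared bases of Gm20659 and Gm43126, and 0% of those of Gm15283 and Gm47163. Where spliced reads did so, 25.8% ± 0.415 were 3' UTR, 45.9% ± 1.21 coding sequence and 24.4% ± 0.0532 5' UTR. A base annotated in more than 1 way was counted as coding sequence first, then 3' UTR. The rest lay in exons of coding genes that carry neither label.

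No spliced member read had an intron at the positions of an annotated intron of the other strand. The counts were 0 of 665 spliced reads in replicate 1 and 0 of 601 in replicate 2, which allow up to 0.451% and 0.499%. Such introns were rare in the other types too. Of all reads, they were in 0.198% for coding genes, 0.0710% for lincRNA and 0.0344% for processed_transcript. Whether members differ from these types was not tested. Of 328 spliced structures of members, 95 occurred in each library and took up 78.1% of the spliced reads. Coding genes had 28.8% of structures in both libraries, with 91.9% of the spliced reads, against 29.0% of structures for members.

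Gene by gene, 49 members had more than 50% of their reads spliced, 56 had no spliced read, and 45 consisted of single-exon genomic reads alone. In 22 members there was no spliced read and every read lay over coding exons. In another 22 more than 50% of the reads were spliced and more than 50% annotated. Of the 131, 73 had under 50% of their read bases in their own annotated exons, and 12 had none there. The median over members was 36.6%. As above, reads of annotated transcripts count as wholly in their own exons.

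**Figure D3:**
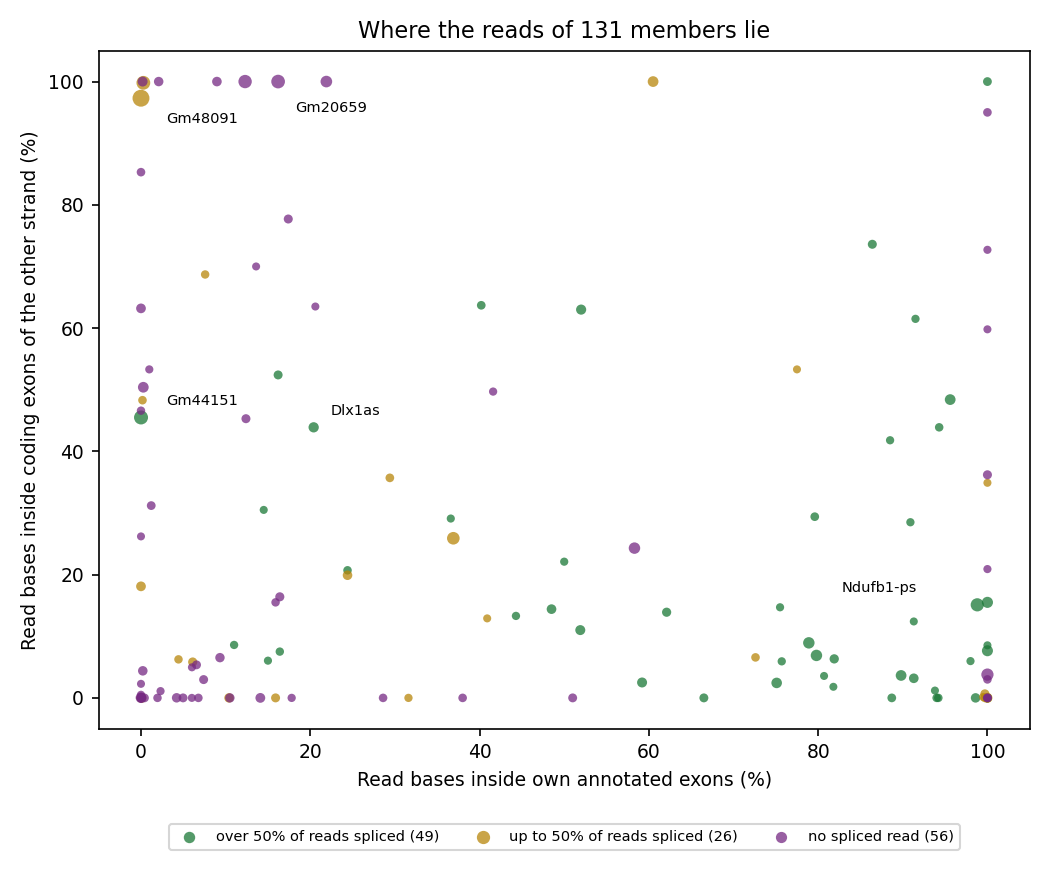
Each point is a member: the percent of its read bases inside its own annotated exons (x) against the percent inside coding exons of the other strand (y). Colour gives the share of spliced reads, and point area grows with the level. Many members without spliced reads lie along the left edge, as does Gm48091 at 0% and 97.3%, while Ndufb1-ps lies at 98.8% and 15.1%.

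Uncatalogued antisense reads lay over many of the same coding genes. Models that the deposited tables assign to uncatalogued genes antisense to a known gene held 8.83% ± 0.0202 of mouse reads, against the members' 0.268%, and 97.3% ± 0.0565 of those reads had a single exon. Such reads lay over 62 of the 131 neighbours in both libraries, and over 19 they exceeded the member's own reads in both. The same count was not made over all coding genes, so whether neighbours differ from other coding genes was not tested. Cacng8 had 49 and 85 of them beside the 100 and 89 of Gm44151, and Opcml had 46 and 23 beside those of Gm48091. How the authors assigned a strand to a read is not given in the sources used here. Whether these reads and those of the members come from the strand given was not tested.

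Each of the 131 members had a coding neighbour of its own. Bodies overlapped in 120 pairs. The member was above its neighbour in both libraries in 34 pairs, below in 84 and mixed in 13, and in 22 pairs it was at least 10-fold lower. Wilson intervals of the share were clear of 50% in both libraries in 16 of the 34 and 58 of the 84, so the order of the other pairs lies within counting error in at least 1 library. The median share of the pair's reads was 31.2%, and 31.6% in each library taken alone. Counting spliced reads alone, the member was above in 17 pairs and the median share was 3.04%, and with annotated transcripts alone these were 16 pairs and 1.70%.

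The order of member and neighbour is given here by layout, without a test. Among 55 head-to-head overlaps, where each start lies inside the other gene, 12 members were above and 39 below, with a median share of 32.3%. Of 36 members inside a coding gene, 8 were above and 25 below (25.3%). Of 19 tail-to-tail overlaps, 7 were above and 9 below (41.7%). Members that span a whole coding gene were the other way round by count, with 7 of 10 above and a median share of 75.7%. Among them 4930549G23Rik was below its neighbour, and 1600010M07Rik and 4732471J01Rik were mixed. These were named after their values were seen. Of the spanning members above, Gm20687 and Dlx6os1 alone had Wilson intervals clear of an even share in both libraries. For the rest of those above, the order lies within counting error in a library or in both. The 20 most abundant members were above in 12 pairs and below in 6, the other 111 above in 22 and below in 78. The 20 were picked by the same level that sets the order, so the choice itself favours members above their neighbour.

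**Figure D4:**
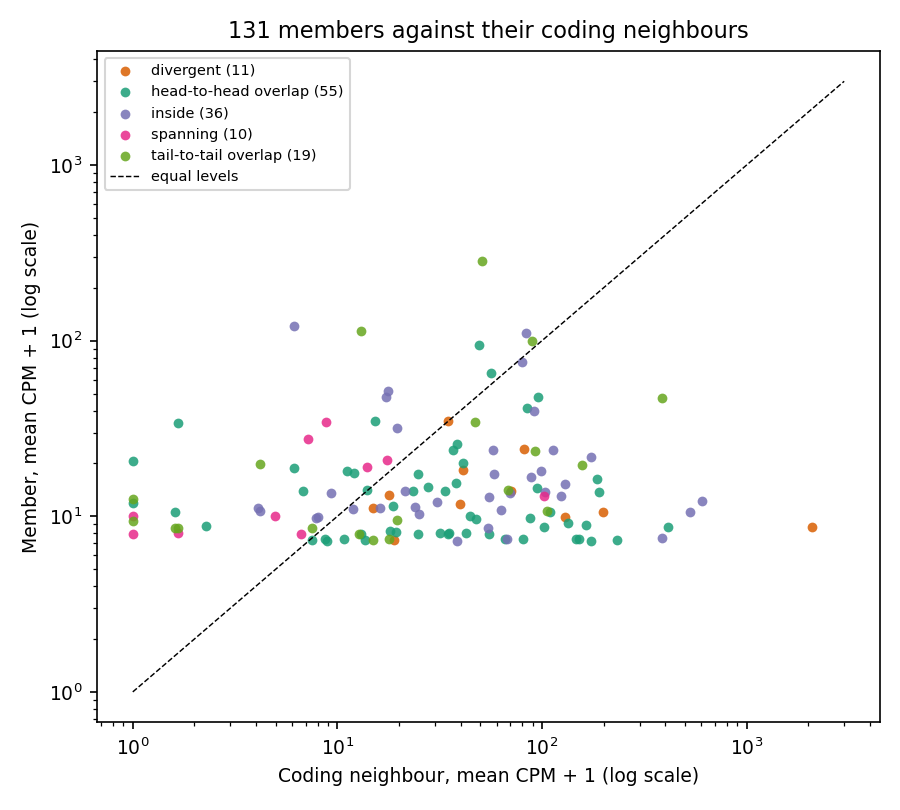
Mean level of each member against its coding neighbour, both as CPM + 1 on log axes, coloured by layout with the number of pairs in brackets; the dashed line marks equal levels. Points below the line are members lower than their neighbour, and Actg1 at 2093 CPM is the neighbour farthest to the right.

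Levels of member and neighbour showed little relation across pairs. Pearson's r of log2 CPM was 0.06 over the 125 pairs whose neighbour had reads, a description only, since the minimum of reads fixes the lower end for members. Among the 87 pairs with at least 20 reads in each library, the lowest shares were those of 0610009L18Rik with Actg1, Gm12227 with Cdc42se2 (1.65% ± 1.02), D830024N08Rik with Tecr (1.76% ± 0.355), Gm11175 with Jund (1.79% ± 1.40) and Gm17251 with Rab11b (1.84% ± 0.311). These neighbours include a gene of fatty acid elongation, Tecr, a transcription factor gene of the AP-1 family, Jund, and a GTPase gene of recycling endosomes, Rab11b. Gm11175 had 4 and 13 reads against 494 and 455 of Jund, and each followed its annotated transcript. Because those transcripts lie wholly within Jund exons, its reads are counted as lying over coding exons in full.

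The highest shares among the same 87 pairs were those of Gm20687 with Zfhx2 (80.1% ± 9.97), Gm48091 with Opcml (84.4% ± 4.20), Gm15337 with Arhgap26 (90.3% ± 2.16), Gm44151 with Cacng8 and Gm15283 with Gm49321 (97.5% ± 3.54). In all 5 pairs no read of the member followed an annotated transcript, and in all but that of Gm44151 at most 1.13% of the reads were spliced. The leading models of Gm15283 lay outside the body of Gm49321, so most reads in that share do not touch the neighbour. Of the pairs with fewer reads, 6 more had a neighbour with reads and a share from 85.1% to 94.4%. Annotated reads were present in 3 of these, E130307A14Rik, Gm44210 and Trmt61b, named after their values were seen. In 6 other pairs the neighbour had 0 reads in both libraries. Of the last, Dlx6os1, Gm40578 and Gm16008, with Gm40578 and Gm16008 named after their values were seen, had 92.9%, 92.3% and 100% of reads spliced, and the others had none. Of these others, Gm12709 and Gm17202, named after their values were seen too, had their leading model in each library outside the neighbour's body.

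Members beside developmental transcription factors formed 7 pairs of 77 listed genes, 75 of which had reads. Over all coding genes with at least 10 reads, 111 of 10467 were neighbours, and the list was not tested against that share. Dlx1as, which spans the interneuron gene Dlx1, had 13 and 28 reads against 8 and 2, and Dlx6os1, across Dlx6, had 5 and 9 against 0 and 0. Both stood above their neighbour in both libraries. Emx2os had 6 and 5 reads, 90.9% spliced, against 11 and 36 of Emx2, a gene that patterns cortex and hippocampus. A830082K12Rik had 17 and 13 against 38 and 25 of the nuclear receptor gene Nr2f1. Gm19522, inside Zbtb20, a zinc finger gene of hippocampal pyramidal neurons, had 12 and 8 against 77 and 83, and Gm2164 had 3 and 9 against 135 and 121 of Pou3f1. Emx2os and the latter 3 stayed below their neighbours in both libraries, and Gm20687 with Zfhx2, given above, was higher. Of those below, the intervals of Emx2os in replicate 1 (17.3 to 58.7) and A830082K12Rik in replicate 2 (21.2 to 50.1) included 50%. Of those above, the interval of Dlx1as in replicate 1 (40.9 to 79.2) did so too. The share of read bases in the member's own exons was 98.0% for Emx2os, 94.0% for Dlx6os1 and 48.5% for A830082K12Rik. It was 20.4% for Dlx1as, 15.9% for Gm19522, 11.0% for Gm2164 and 0.274% for Gm20687, so most of their read bases lay outside their annotated exons.

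Airn, the imprinted antisense RNA of Igf2r, had 12 and 14 reads against 7 and 10 of that receptor gene. It was above in both libraries, at 63.2% (Wilson interval 41.0 to 80.9) and 58.3% (38.8 to 75.5) of the pair, and both intervals include 50%. The alleles of the hybrid were not separated. Spliced reads were 15.4% of the total, and 10.4% of read bases lay in its annotated exons. Of a list of well-known antisense and divergent RNAs, 30 genes were annotated, 22 had reads and 11 had at least 10, of which Airn, Dlx6os1 and Emx2os are members. Others of the listed antisense genes were at the limit of detection, with 4 and 0 reads for Kcnq1ot1 and 4 and 1 for Tsix. No neighbour was among 60 synapse and excitability genes, and Ccnd2 was the only neighbour among 36 growth and cell cycle genes. At the share over all coding genes, lists of this size would hold few or none, so these counts say nothing about such genes.

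Between the libraries, Fisher's exact test (two-sided, gene reads against all other mouse reads) was run over 8875 genes with at least 20 reads, and Benjamini-Hochberg adjusted p under 0.05 was called. It compares these libraries, not conditions, against counting error only. Over all genes 140 were called, 1.58%, and of 58 members tested 3 were, 5.17%. Gm48091 was higher in replicate 2, at 355 CPM against 214 in replicate 1 (log2 ratio 0.73, exact test's adjusted p 4.02e-05). That is 1 member higher, against 0.744% of all genes, and the 2 other called members were lower, against 0.834% of all genes. Opcml, under the reads of Gm48091, had a log2 ratio of 0.07 over the same libraries.

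AC110206.1, a spliced member inside Gpam, a gene of glycerolipid synthesis, had 30 reads in replicate 1 and 7 in replicate 2. The log2 ratio was -1.88 and the exact test's adjusted p 0.0345, while Gpam had 60 and 30 reads. AC140073.1, inside Ankrd13d, had 20 and 3 reads, a log2 ratio of -2.41 and an exact adjusted p of 0.0447, against 97 and 102 of its neighbour. Neither call held under each alternative. With genes of any read count tested, the adjusted p was 0.0693 for AC110206.1 and 0.0896 for AC140073.1, and with a minimum of 10 reads the latter was 0.0536. Among 95 neighbours tested, Emx2 alone was called, with a log2 ratio of 1.81 and an exact adjusted p of 0.00750. In bulk tissue fewer cells of a type and less RNA per cell cannot be told apart.

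**Figure D5:**
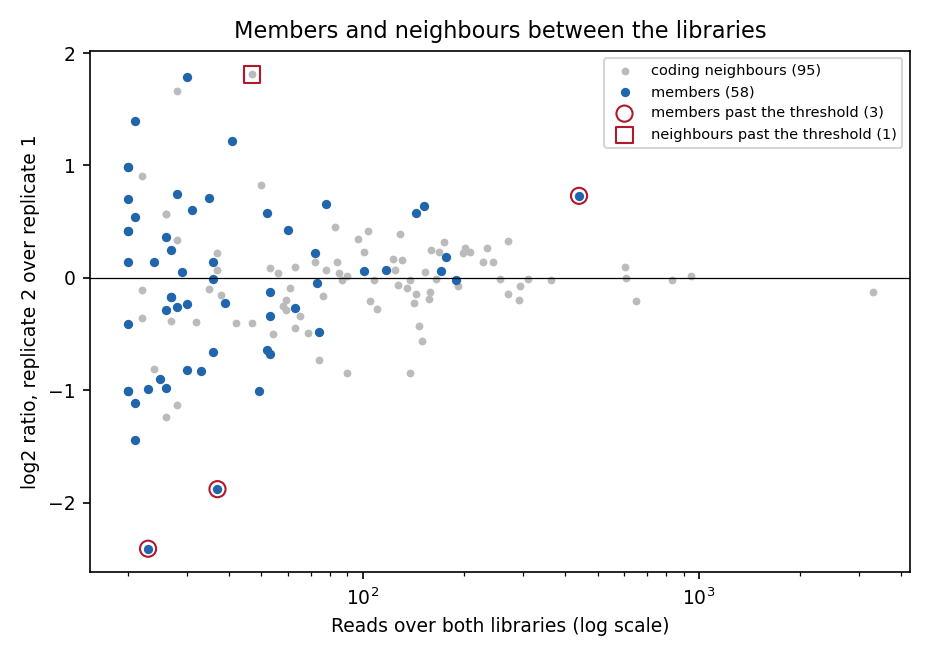
Log2 ratio of replicate 2 over replicate 1, after adding 0.5 reads, against reads over both libraries on a log axis, for 58 members (blue) and 95 neighbours (grey) with at least 20 reads. Circles mark the 3 called members and the square Emx2; the spread narrows as reads increase.

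A larger share of members than of all genes tested differed at least 2-fold, with no test of that difference. On CPM 14 of 58 members, 24.1%, differed at least 2-fold, against 4.61% of all genes tested, and 2 members, 3.45%, were also called, against 0.530%. The median level of the 58 members was 19.9 CPM and that of all 8875 genes tested 44.4, and the part of this in the fold differences was not tested. The median log2 ratio of members was 0.02 and that of all genes 0.01. Members at 2-fold or more without a call included Dlx1as (log2 1.22, exact test's adjusted p 0.257), 9630013A20Rik (-1.01, adjusted p 0.347) and B230354K17Rik (-0.99, adjusted p 0.693). Tug1, with 7 and 13 reads, and Gt(ROSA)26Sor, with 15 and 6, were among them too and were named after their values were seen. The ratios of members and neighbours are described over 46 pairs with at least 20 reads in each gene, where Pearson's r across pairs was 0.07, and 19 pairs had the same sign.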

How the data were processed

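The deposited tables hold raw read counts per transcript model, made by the authors per library without normalization, per the file headers and the values. Other deposited columns give each model's number of exons, length and positions. The authors worked on mm10 with GENCODE M21, per a deposited text file. Which aligner and transcript caller they ran, and in which version, is not given in the sources used here. Reads of a hybrid were placed on 1 reference, so alleles cannot be told apart here.

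Reads were summed per gene over every model assigned to a known gene. CPM divides by a library's mouse reads, with ERCC spike-in reads left out. For log2 ratios (replicate 2 over replicate 1), 0.5 reads were added to each count. Gene positions came from GENCODE M21, since the deposited spans differed from it for 18074 of 55536 genes. A read was called over a coding exon from 1 shared base. Bases and ends of a read were taken from its model. Fisher's exact test with Benjamini-Hochberg adjustment (scipy 1.17.1) was checked on simulated counts. Shares have Wilson 95% intervals. Library scaling by TMM used edgeR 4.0.16.

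The members and gene lists were chosen with earlier results of these data known. Genes were named by rule: the 20 most abundant members, the 8 most abundant bidirectional members, every called member, the 5 highest and 5 lowest shares among pairs with at least 20 reads in each library, and members or neighbours in a list. Pairs whose promoter is printed were named for their sequence. The lists were well-known antisense RNAs, developmental transcription factors, synapse, growth, imprinted and hippocampal genes. Alternatives varied the minimum of reads, the models counted, the neighbour, the overlap and the libraries.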

Additional observations from a re-analysis of the deposited data

How the results depend on the processing

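With 1 group of 2 libraries every spread rests on n = 2, and most members have too few reads for a call. The number of members was 275 at a minimum of 5 reads, 58 at 20, 34 from annotated transcripts alone and 41 from spliced models alone, and 133 to 147 from a single replicate, for which the minimum was also lowered to 5 reads. Members called between the libraries were 3, against 1 with no minimum of reads, 2 with a minimum of 10 and 3 with TMM scaling. From annotated transcripts the exact test called 0 of 14 members tested (3 at an unadjusted p under 0.05), and from spliced models 0 of 18 (4 at that p). Gm48091 kept its call under both other minimums and TMM, with adjusted p from 4.96e-05 to 8.28e-05, and AC110206.1 lost its call from spliced models (adjusted p 0.222).

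Members above their neighbour were 34, against 39 with the nearest coding start on either strand, 16 from annotated and 17 from spliced models, and 38 to 43 with either replicate left out; those below were 84, and 82, 84, 94 and 88 to 91. The median share of the pair, 31.2%, was 31.8% with the either-strand neighbour, 1.70% from annotated and 3.04% from spliced models, and 31.6% with either replicate left out. The spliced share of 30.2% was 76.0% without the genomic class, which puts spliced reads in the majority, and 6.45% as a median over members. It was 36.5% without the 5 most abundant members and 33.7% without Gm48091, both chosen after seeing the data. The share over coding exons, 71.4%, was 65.9% for an overlap of at least 50 bases, 65.3% for the neighbour's exons alone, and 62.2% and 68.2% in those added settings. With either replicate left out these shares were 29.0% to 31.4% and 69.5% to 73.3%. The number of divergent pairs was 11 at limits of 1000, 2000 and 5000 bases. All 11 pairs without overlap were already divergent at 2000 bases, so the wider limit could not add any. No paired analysis was possible because there is 1 group.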
